A study of Mus musculus with 12 samples.

Results

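Retinoic acid is a small signal made from vitamin A, and 4 genes that make, spare, break down or read it were followed in sorted mouse motor neurons. They are Aldh1a2, Dhrs3, Cyp26b1 and Rxra, chosen by name, and they are 4 of the 205 different genes listed in the 3 deposited tables. Gene expression was measured by RNA sequencing at embryonic stage E12.5 in spinal motor neurons that carried the Hb9::GFP reporter, a green fluorescent protein driven by a motor neuron gene, and were sorted by it. The 4 groups were brachial control, thoracic control, brachial Pbx mutant and thoracic Pbx mutant, with 3 libraries each, named A, B and C. Brachial cord supplies the forelimb and thoracic cord the body wall and the sympathetic ganglia. All embryos were of a mixed C57BL/6 background and all sorted cells carried the reporter. Controls were littermates, and mutants had the genotype named PbxMNdelta, a loss of Pbx genes in motor neurons. Pbx proteins are homeodomain partners of Hox factors. The sources used here do not give the alleles, the driver of the deletion or the part of each gene removed, and the design text names 9 pooled controls without saying how embryos were divided over libraries. P-values therefore measure only the spread between libraries, which may be technical. Pbx3 RNA was lower in mutants at both levels (log2 difference -0.59 thoracic, -0.65 brachial), but as the deleted part is unknown here this does not check the labels.

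Retinol is first oxidised to retinal and then, by retinal dehydrogenases such as the product of Aldh1a2 (RALDH2), to retinoic acid. Dhrs3 encodes a reductase that turns retinal back to retinol and so holds down the supply, and Cyp26b1 encodes a cytochrome P450 that oxidises retinoic acid to inactive forms. Rxra encodes retinoid X receptor alpha, which pairs with retinoic acid receptors and with several other nuclear receptors on DNA. In the embryonic cord, Aldh1a2 is known as a marker of the motor neurons that supply limbs, and retinoic acid made there is known to shape their subtypes. It is also expressed in the meninges, which the labels' protocols say were removed before sorting.

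Cyp26b1 was 1 of the 2 genes, of 205, that were listed in all 3 tables. Aldh1a2 and Dhrs3 were listed between control levels, and Rxra in the thoracic mutant comparison. The authors kept only genes that passed their own limits, namely 64 genes between control levels, 130 for thoracic mutants and 62 for brachial mutants. Their p-values and adjusted p-values imply 13708, 16235 and 11847 genes tested, so that 0.467%, 0.801% and 0.523% of tested genes were listed. The limma p-values below were computed over these selected genes. They describe the spread between libraries and are not independent evidence of change, and values of members in tables that do not list them were not analysed here.

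The promoter windows of the 2 members that fell in thoracic mutants, Cyp26b1 and Rxra, are shown because the mutation removes DNA-binding factors, and because retinoid receptors bind repeats of AGGTCA. Windows run from 250 bases before a RefSeq start site to 50 after it (GRCm38.p6), 5′ to 3′ on the gene's strand. Capitals mark TATAAA in the Cyp26b1 window and AGGTCA, on either strand, in the window of the second Rxra start site.
Cyp26b1 (chr6:84593761-84594060, minus strand): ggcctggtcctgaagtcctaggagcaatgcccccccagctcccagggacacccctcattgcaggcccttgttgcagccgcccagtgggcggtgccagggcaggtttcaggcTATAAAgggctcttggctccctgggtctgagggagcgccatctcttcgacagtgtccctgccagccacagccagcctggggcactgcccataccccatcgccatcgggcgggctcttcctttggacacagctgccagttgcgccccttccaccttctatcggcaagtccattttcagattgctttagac
Rxra, second start site (chr2:27709042-27709341, plus strand): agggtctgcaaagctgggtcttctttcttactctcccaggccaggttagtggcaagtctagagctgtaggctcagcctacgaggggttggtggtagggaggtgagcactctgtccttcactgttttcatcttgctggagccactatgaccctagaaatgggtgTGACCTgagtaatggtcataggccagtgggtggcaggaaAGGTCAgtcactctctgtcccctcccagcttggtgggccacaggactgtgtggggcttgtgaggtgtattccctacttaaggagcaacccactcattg

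All 4 members matched entries of that table, with 1 window for Aldh1a2 and Cyp26b1, 2 for Rxra and 3 for Dhrs3. Both strands were searched for AGGTCA, for its direct repeats AGGTCANAGGTCA, AGGTCANNAGGTCA and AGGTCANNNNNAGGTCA, which each contain AGGTCA, for the Hox-Pbx motif TGATNNAT and for the Pbx-Meis motif TGATTGAC. TATAAA was added after the sequence was seen. AGGTCA was found in 16.3% of 32851 mouse windows and among the members only at the second Rxra start site, where it stood 87 bases before the start on the reverse strand and 48 before it on the forward strand. TGATNNAT was found in 8.85% of all windows, TGATTGAC in 0.77%, and the repeats in 0.0396%, 0.00913% and 0.00913%, and none of these letters was in a window of the 4 members. TATAAA, found in 13.6% of windows, lay 139 bases before the Cyp26b1 start. The Aldh1a2 window and the first Rxra window were rich in G and C, at 78% and 83% against a median of 52.7% over all windows.

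Between control levels, the gene for retinoic acid synthesis was high in brachial motor neurons and at few reads in thoracic ones, while the gene for its breakdown was higher in thoracic motor neurons. The deposited values are normalized counts, in which the reads of a library were divided by a factor of its own. Aldh1a2 stood at 318, 784 and 703 normalized counts in brachial controls A, B and C, and at 5.10, 10.2 and 0.976 in thoracic controls A, B and C. The lowest brachial library was 31.1-fold above the highest thoracic one, and brachial library A held less than B and C. If 1 step of the values is 1 read, the thoracic values rest on 6, 13 and 1 reads. The group means were 602 ± 249 and 5.43 ± 4.64 (SD, n = 3 each), and the log2 difference was 6.97 (SE 0.78; limma adjusted p = 0.000675), on the scale of log2(normalized count + 0.5) used for every difference here. This was the largest brachial-high difference of the 24 genes listed in that direction, and the second largest of all 64. Its size depends on the few thoracic reads and lay between 6.18 and 7.71 over 11 other settings.

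Dhrs3, the retinal reductase, was also higher at the brachial level, though at far lower values. It stood at 37.1, 55.8 and 36.5 normalized counts in brachial controls A, B and C, against 14.4, 10.2 and 14.6 in the thoracic ones. The groups did not overlap, with a 2.49-fold gap between their nearest libraries. The means of 43.1 ± 11.0 and 13.1 ± 2.49 (SD, n = 3 each) differed by 1.67 on the log2 scale (SE 0.25; limma adjusted p = 0.00178), or 3.29-fold. With each library centred on the median log2 value of the listed genes, it was 2.41 (SE 0.26; limma adjusted p = 0.000181). The listed genes were selected as differing, 40 of 64 with higher thoracic values, so centring on them moves each difference toward the brachial side. Without centring, the difference was the ninth of the 24 brachial-high genes, close to their median of 1.42.

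Cyp26b1, the retinoic acid oxidase, ran the other way. Brachial control libraries A, B and C held 98.9, 54.6 and 100.4 normalized counts and thoracic ones 207, 146 and 166. The groups did not overlap but lay closer than for Aldh1a2 and Dhrs3, 1.45-fold apart at their nearest libraries. The means of 84.6 ± 26.0 and 173 ± 31.4 (SD, n = 3 each) differed by -1.06 on the log2 scale (SE 0.30; limma adjusted p = 0.0132), which is 2.04-fold higher in thoracic libraries. This is close to the median of all 64 listed genes, -1.14, and 35 of the 40 thoracic-high genes differed by more. With the same centring, the difference was -0.33 (SE 0.33; limma adjusted p = 0.354) and no longer passed. Because most listed genes were selected as thoracic-high, a gene near their median moves toward 0 under this centring by construction.

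All 3 members listed between control levels passed limma at an adjusted p under 0.05, as did 98.4% of the genes in that table, and 98.4% of its genes had groups that did not overlap. The count of members is therefore no different from the background. Of all listed genes, 35.9% passed with higher brachial values, as did Aldh1a2 and Dhrs3, and 62.5% with lower ones, as did Cyp26b1.

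**Figure D1:**
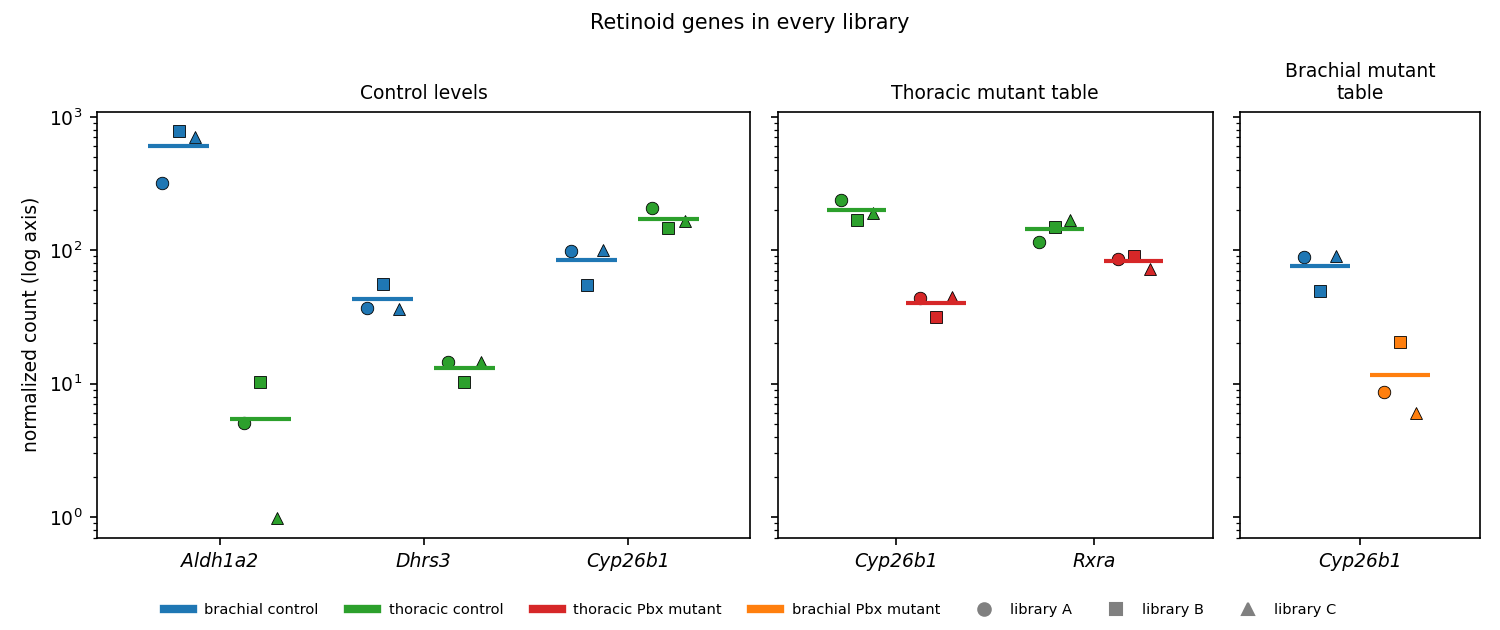
Normalized counts (log axis) of the 4 retinoid genes in every library of each table that lists them; symbols are libraries A, B and C, colours are groups and bars are group means (n = 3). Aldh1a2 separates the control levels by 31.1-fold at the nearest libraries, and Cyp26b1 is lower in brachial than in thoracic controls and lower in mutants than in controls at both levels.

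Because a library's factor cancels in the ratio of 2 genes of the same library, the balance of the members was also taken within each library, as a description. The ratio of Aldh1a2 to Cyp26b1 normalized counts was 3.22, 14.4 and 7.0 in brachial controls A, B and C and 0.0246, 0.0703 and 0.00588 in thoracic ones. The size of such a ratio depends on gene length, but its change between groups does not. The ratio of Dhrs3 to Cyp26b1 was 0.375, 1.02 and 0.364 at the brachial level and 0.0697, 0.0703 and 0.0882 at the thoracic level. These ratios did not overlap between the levels, and they do not depend on the authors' scaling or on centring. Aldh1a2 and Dhrs3 were higher and Cyp26b1 lower in every brachial than in every thoracic library. The lack of overlap was fixed by those values and is no added evidence. Within brachial controls, library B held the most Aldh1a2 and Dhrs3 and the least Cyp26b1.

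**Figure D2:**
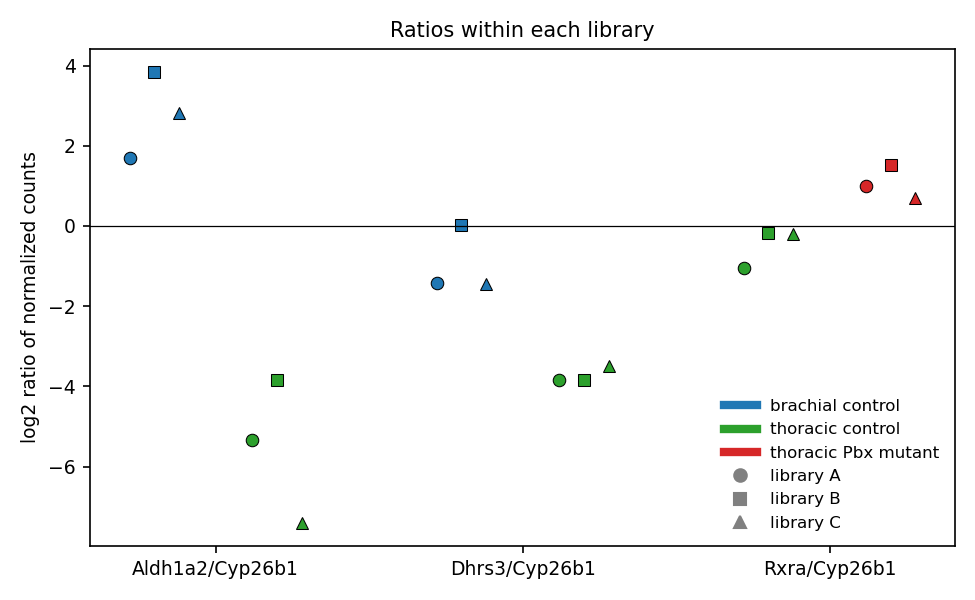
Log2 ratio of the normalized counts of 2 retinoid genes within each library (symbols A, B and C; colours are groups). The ratios of Aldh1a2 and Dhrs3 to Cyp26b1 are higher in every brachial than in every thoracic control library, and the ratio of Rxra to Cyp26b1 is higher in every thoracic mutant than in every thoracic control library. These separations were fixed by the values of the single genes and are no added evidence.

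Levels of different genes were compared per kilobase of annotated exon, with exon lengths from GENCODE on GRCm38, which is not the build named in the submitters' notes. In brachial controls Aldh1a2 stood at 266 ± 110 normalized counts per kilobase (SD, n = 3), against 15.8 ± 4.86 for Cyp26b1 and 14.7 ± 3.75 for Dhrs3, which lie within each other's spread. In thoracic controls the order of means was Cyp26b1 at 32.3 ± 5.86, Dhrs3 at 4.48 ± 0.849 and Aldh1a2 at 2.40 ± 2.05, of which the last pair overlapped in its spread. In the thoracic mutant table, Rxra stood at 26.3 ± 4.95 and Cyp26b1 at 37.2 ± 6.72 per kilobase in controls, and at 15.3 ± 1.77 and 7.50 ± 1.35 in mutants, so that the order of their means was reversed. No exon base of the 4 members is shared with another gene in that annotation.

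In thoracic motor neurons of Pbx mutants, the gene for retinoic acid breakdown fell to about 20% of its control level and the gene for the receptor Rxra fell less. Cyp26b1 stood at 238, 168 and 191 normalized counts in thoracic controls A, B and C, against 43.6, 31.9 and 45.0 in mutants A, B and C. Every control library was at least 3.74-fold above every mutant library, and the spread within each group was about 18% of its mean. The means of 199 ± 35.9 and 40.1 ± 7.21 (SD, n = 3 each) differed by -2.30 on the log2 scale (SE 0.20; limma adjusted p = 0.000338), 4.96-fold lower in mutants and the eighth largest of 103 falls. In such bulk libraries, fewer cells with a transcript and less of it per cell cannot be told apart.

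Rxra stood at 114, 149.8 and 167 normalized counts in thoracic controls A, B and C, against 86.4, 91.2 and 72.6 in mutants A, B and C. The groups did not overlap, but control library A was only 1.25-fold above the highest mutant library. The means were 144 ± 27.0 and 83.4 ± 9.67 (SD, n = 3 each), and the log2 difference was -0.77 (SE 0.19; limma adjusted p = 0.00841), 1.73-fold lower in mutants. The median difference of the 130 listed genes was -0.67, so Rxra lay near the middle of its table by size. There, 94.6% of genes passed limma, 75.4% of genes as falls, and 97.7% had groups that did not overlap. The limma adjusted p was computed over these 130 selected genes only. In the authors' DESeq2 model, over an implied 16235 tested genes, the adjusted p of Rxra was 0.0415. By the authors' p-value, Rxra ranked 120 of the 130 listed genes. With the centring, its difference was -0.06 (SE 0.24; limma adjusted p = 0.827) and no longer passed, while that of Cyp26b1 was -1.58 (SE 0.18; limma adjusted p = 0.000405). As 103 of the 130 genes were listed as falls, a gene near the median of the 130 moves toward 0 under this centring by construction. Within libraries, the ratio of Rxra to Cyp26b1 counts was 0.480, 0.892 and 0.876 in controls and 1.98, 2.86 and 1.61 in mutants. Cyp26b1 was thus lower relative to Rxra in each mutant library than in any control library. This separation was fixed by the values of the 2 genes given above and is no added evidence.

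In brachial motor neurons, Cyp26b1 fell as well, from a lower control level. It stood at 89.1, 49.1 and 90.6 normalized counts in brachial controls A, B and C, against 8.60, 20.5 and 6.01 in mutants A, B and C. The groups did not overlap, with the lowest control library 2.40-fold above the highest mutant library, and these nearest libraries were B in both groups. If 1 step is 1 read, the mutant values rest on 9, 22 and 6 reads. The means of 76.3 ± 23.6 and 11.7 ± 7.71 (SD, n = 3 each) differed by -2.78 on the log2 scale (SE 0.43; limma adjusted p = 0.00102), 6.52-fold lower in mutants. With the centring, the difference was -2.10 (SE 0.47; limma adjusted p = 0.00881). Without centring, this fall was the largest difference of the 62 listed genes, and Cyp26b1 was also the gene of lowest mean level among them. In this comparison, 98.4% of genes passed limma, 82.3% of genes as falls, and 96.8% had groups that did not overlap.

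**Figure D3:**
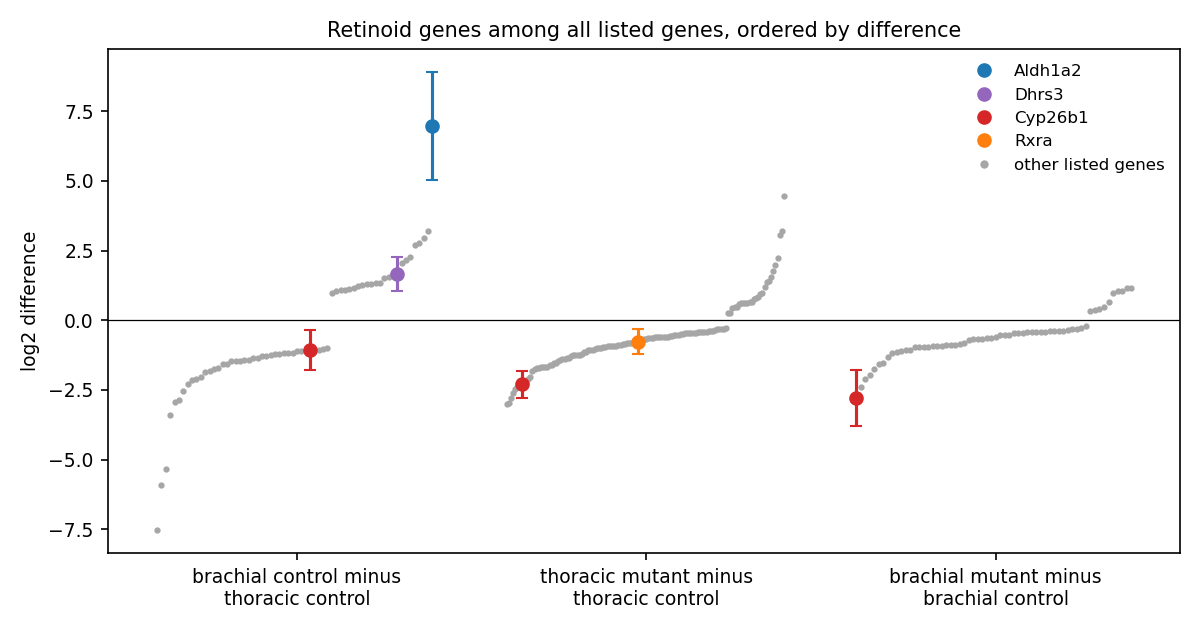
Log2 difference of every listed gene in the 3 comparisons, ordered within each; grey points are the other listed genes and coloured points the retinoid genes with the 95% interval of the limma fit (n = 3 libraries a group). Cyp26b1 lies near the median of the control comparison (-1.06) and at the low end of the mutant comparisons (-2.30 and -2.78), and Aldh1a2 lies at the high end of the control comparison (6.97).

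Whether the fall of Cyp26b1 differs between the levels was tested directly, and the test did not pass. The brachial minus thoracic difference of the log2 effects was -0.48 (SE 0.54; 95% interval -1.67 to 0.70; limma interaction adjusted p = 0.970 over the 30 genes of both mutant tables). The interval covers a fall that is larger at either level, so the effects are not shown to be equal. In that test 0% of the 30 genes passed, and 0 had an unadjusted p under 0.05. Without brachial mutant library B, which held the most Cyp26b1 of its group, the difference was -0.97 (SE 0.39; limma adjusted p = 0.613), and without mutant library C it was -0.12.

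To set the 4 groups side by side, mutant values were brought to the scale of the control-level table, dividing them by the ratio of the shared control libraries between tables (1.15 for the thoracic and 0.901 for the brachial table). The tables were normalized separately, so this order is a description with no test. Cyp26b1 averaged 173 ± 31.4 in thoracic controls, 84.6 ± 26.0 in brachial controls, 34.9 ± 6.26 in thoracic mutants and 13.0 ± 8.56 in brachial mutants (SD, n = 3 each). Neighbouring groups in this order did not overlap, with 54.6 the lowest brachial control, 39.0 and 27.7 the highest and lowest thoracic mutants and 22.7 the highest brachial mutant. The brachial mutant mean was 7.51% of the thoracic control mean. Thoracic mutants were below brachial controls, and the thoracic above brachial order of the controls was also present in the mutants. The comparison of control levels shares its libraries with each mutant comparison.

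**Figure D4:**
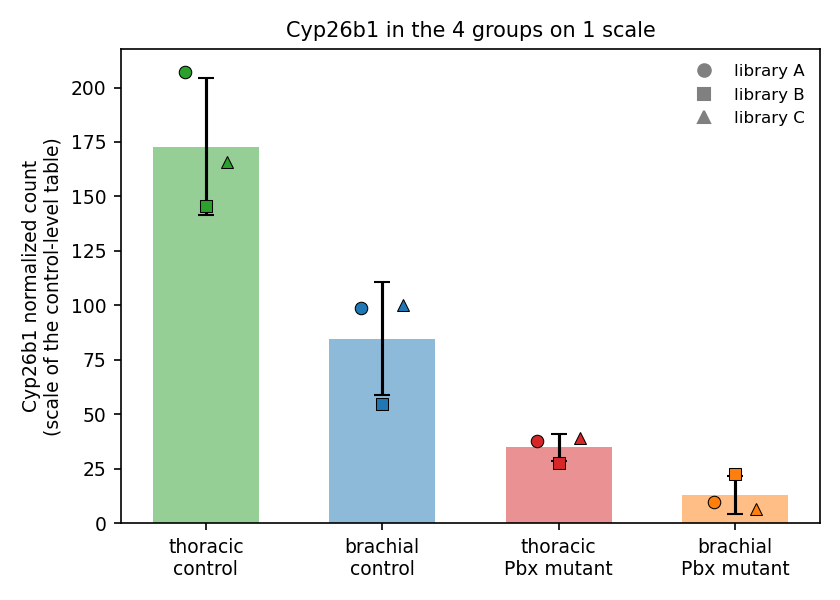
Cyp26b1 normalized counts in the 4 groups on the scale of the control-level table (bars are means, error bars SD, symbols libraries A, B and C). The means run from 173 in thoracic controls through 84.6 and 34.9 to 13.0 in brachial mutants, with no overlap between neighbouring groups; the tables were normalized separately.

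The rest of the retinoid pathway was looked for in fixed lists of 46 genes. Lists and members were chosen with earlier results of these data known, so the outcome was partly set in advance. Only the 4 members were listed, Aldh1a2 and Dhrs3 of 19 dehydrogenases and reductases, Cyp26b1 of 3 breakdown enzymes, Rxra of 12 receptors and cofactors, and 0 of 12 uptake and binding genes. Of 15 other nuclear receptors, many of which pair with RXR, 1 was listed, Nr2f2, an orphan receptor, which was lower in brachial mutants (578 against 839 normalized counts, log2 difference -0.52, SE 0.19, limma adjusted p = 0.0265) with groups that overlapped. Of 27 textbook targets of retinoic acid, 7 were listed between control levels. Dhrs3 and 5 Hox genes (Hoxc6, Hoxc5, Hoxc4, Hoxa2 and Hoxb8, between 1.06 and 1.31) were higher at the brachial level and Cyp26b1, itself a target, was lower. The median of the 7 was 1.17, against -1.14 over all listed genes of that table. That median rests mostly on which Hox genes the list holds, since others outside it, such as Hoxc9 (-1.07), were lower at the brachial level. Retinoic acid response was not tested. Hoxa2 and Hoxc5 share exon bases with a neighbouring gene in the annotation, and their counts are uncertain. In each mutant comparison, Cyp26b1 was the listed one of the 27 targets. Of 13 limb motor column genes, 5 were listed between control levels, of which Aldh1a2, Runx1 (3.19), Etv4 (2.94) and Hoxc6 were higher at the brachial level and Hoxc10 (-7.53), which shares exon bases with Hoxc5 and had few brachial reads, was lower. In the mutant tables, 1 of the 13 was listed at each level, Etv4, higher in thoracic mutants (46.1 against 5.18 normalized counts), and Nr2f2, lower in brachial mutants. These listed genes passed limma. So did 98.4%, 94.6% and 98.4% of all genes in the control-level, thoracic and brachial mutant tables, so their passing is near the background. Among all tested genes, 0.467%, 0.801% and 0.523% were listed in these tables. As the lists were chosen with earlier results known, the counts of listed genes were not tested against those shares.

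Genes with the most similar profile were found by the root mean square difference of log2 values over the 6 libraries of a table, after subtracting each gene's mean. The genes were selected for a difference between 2 groups, so this measure depends largely on how alike those differences are. Between control levels they were -1.06 for Cyp26b1, -1.07 for Hoxc9, -1.16 for Hmga2 and -1.06 for Thsd4. Shared regulation was not tested. Nearest to Aldh1a2 were Runx1 (1.92), Etv4 (2.21) and Tacr3 (2.27), none of them close, against a median of 4.16 over the 63 other genes. Nearest to Dhrs3 were Hoxc6 (0.34), Hoxc4 (0.36) and Hotairm1 (0.36), against a median of 1.45, and nearest to Cyp26b1 between control levels were Hoxc9 (0.26), Hmga2 (0.26) and Thsd4 (0.29), against 0.91. In the thoracic mutant table Cyp26b1 was nearest to Nos1 (0.26), the nitric oxide synthase, Pkd2l1 (0.27), a channel gene, and Creb5 (0.29), a transcription factor gene, against a median of 0.87 over 129 genes. Among the genes nearest to Rxra were Ebf2 (0.15) and Dgkb (0.15), against 0.40. Over the 12 libraries of both mutant tables, Creb5 (0.53), Hrk (0.67) and H19 (0.70) were nearest to Cyp26b1 of 29 genes with a median of 1.04. The values of Cyp26b1 in the brachial mutant table alone were nearest to Creb5 (0.69), Arhgap36 (0.76) and H19 (0.77).

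Marker lists of other cells had few listed genes. Of all tested genes, 0.467%, 0.801% and 0.523% were listed between control levels and for thoracic and brachial mutants, and marker counts were not tested against these shares. Of the listed genes, 62.5%, 75.4% and 82.3% passed limma with lower brachial or mutant values. Groups did not overlap for 98.4%, 97.7% and 96.8%. All listed markers were lower in this sense, which is the usual outcome in these tables. Of 14 meningeal and mesenchymal markers 0 were listed between control levels, where Aldh1a2 differed, and 1 in the thoracic mutant table, Postn, at 26.4 to 41.6 normalized counts in controls and 5.11 to 9.89 in mutants. Of 8 progenitor and glial markers, Nes was listed there, at 530 to 712 in controls and 409 to 438 in mutants. Of 11 interneuron markers, Evx2 was listed between control levels, at 186 to 325 in brachial and 381 to 686 in thoracic libraries. Of 8 motor neuron markers, 3 were listed, in the brachial mutant table, where Chat, Prph and Slc5a7 summed to 864 to 1295 in controls and 623 to 775 in mutants. Chat fell most, from a mean of 168 to 58.2 (log2 difference -1.54). The difference was -0.69 for Prph, and -0.59 for Slc5a7, whose groups overlapped. Of 8 dorsal root ganglion and 7 blood and endothelial markers 0 were listed. The other markers were not analysed here, so the sorted cell type could not be checked against them, and the part of these markers in the differences of Cyp26b1, Rxra and Aldh1a2 was not tested.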

How the data were processed

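RNA sequencing of 12 libraries was used as 3 tables deposited by the authors. Per the submitters' processing notes, the authors used DESeq2 1.12.3, HTSeq 0.6.1p1, Picard 1.88 and Bowtie 1.0.0 with the builds mm9 and NCBIM37. The sources used here do not give their settings or any use of strand. Per the labels' protocols, the cDNA was amplified before library construction. The per-library values, called CPM in the sheet titles, are a normalized signal deposited by the authors: in every library, 100% of nonzero values are a whole number of steps (tolerance 1e-06). If 1 step is 1 read, the listed genes held 14181 to 17457 reads per library between control levels, 50690 to 81370 in the thoracic and 39381 to 52090 in the brachial mutant table, which limits precision by counting error at least. Library totals were not analysed here. The log2 fold changes, standard errors, test scores and p-values come from the model of the authors, who deposited them. The planned tests stand for this unit.

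Values were taken as log2(normalized count + 0.5), unfiltered. Fits used limma 3.58.1 (R 4.3.3), 2 groups per table, with Benjamini-Hochberg adjustment over the listed genes and a threshold of 0.05. The fits were tested on simulated data. Differences are brachial minus thoracic, or mutant minus control. The text names the 4 members, listed genes of the fixed lists and the 3 nearest genes per member and table, without predicted genes. A gene that this rule names is not reported here. The members and lists were chosen with earlier results of these data known. Other settings were centring each library on the median log2 value of its listed genes, a replicate block by letter, a mean of at least 1, a pseudocount of 0.1 or 2, and fits without each library. The rest used matplotlib 3.10.9, scipy 1.17.1, pandas 2.3.3 and numpy 2.4.6 in Python 3.11.15.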

Additional observations from a re-analysis of the deposited data

How the results depend on the processing

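Of 116 values recomputed under other settings, 110 kept their direction, their side of the threshold and, for counts, a size within 1.5 times, and 0 reversed. The setting with a mean of at least 1 removed no gene and repeated every main value. Its agreement, counted among the 110, was therefore fixed in advance. Centring on the median listed gene moved the median listed difference from -1.14 to -0.40 between control levels, from -0.67 to 0.04 in the thoracic and from -0.62 to 0.07 in the brachial mutant table. The listed genes were selected as differing, most of them thoracic-high or falling in mutants, so this centring takes out part of those selected differences. Under it Cyp26b1 between control levels (-0.33) and Rxra (-0.058) no longer passed, and 40 of 64, 52 of 130 and 20 of 62 genes passed, against 63, 123 and 61. Leaving out 1 library gave 6.18 to 7.61 for Aldh1a2, 1.47 to 1.78 for Dhrs3, -0.93 to -0.65 for Rxra, and for Cyp26b1 -1.21 to -0.78 between control levels, -2.41 to -2.14 in thoracic and -3.26 to -2.42 in brachial mutants, and -0.97 to -0.12 for the interaction. It left 61 to 64, 100 to 114 and 40 to 58 genes passing, the 40 without brachial control B.

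The replicate letters were not taken to pair the libraries. Correlations of same-lettered deviations ran from -0.486 to 0.309. In the control-level, thoracic and brachial mutant tables, 4, 2 and 2 of 6 libraries correlated best with their own letter. This check used only the selected genes and cannot show that the libraries are unpaired. Whether libraries of the same letter share embryos is not given, and the main fits treated all libraries as independent. With the replicate block, 64, 118 and 60 genes passed and Cyp26b1 had adjusted p = 0.0090, 0.00311 and 0.0197 in limma. A count model on recovered reads was not run, because the tables hold too few low values to establish whole reads. The smallest values rest on few reads, which limits Aldh1a2 in thoracic controls and Cyp26b1 in brachial mutants.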

Other observations

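The authors' deposited table gives Cyp26b1 a brachial mutant log2 fold change of -0.53 (SE 0.084), where the log2 ratio of its deposited group means is -2.70. The deposited value is 0.195 times that ratio, the second lowest of the 62 listed genes, whose median is 0.679 and whose range is 0.0962 to 0.928. In the thoracic mutant comparison the authors' deposited table gives -2.30 (SE 0.23), 0.997 times the log2 ratio of -2.31. Read from the authors' deposited tables alone, the brachial fall of Cyp26b1 is much the smaller, whereas recomputed from the normalized counts the falls are -2.78 and -2.30 and did not pass a test of difference. For the other members and for Cyp26b1 between control levels, the value of the authors' deposited table was 0.996 to 1.004 times the log2 ratio of group means.

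In thoracic control library B, Aldh1a2 and Dhrs3 had the same number of reads, 13, if 1 step is 1 read, while library C held 1 and 15 and library A 6 and 17. The within-library ratio of Aldh1a2 to Dhrs3 thus ran from 0.0667 to 1.0 among thoracic controls and from 8.58 to 19.3 among brachial controls. In brachial controls, library B was highest for Aldh1a2 and Dhrs3 and lowest for Cyp26b1, and library A was lowest for Aldh1a2 at 318 normalized counts. With 3 libraries a group, no relation between the genes across libraries was tested.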
